A study of Mus musculus with 6 samples.

Results

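The genes of the respiratory chain and of the ATP synthase were examined in 6 RNA-Seq libraries of mouse Th9 cells, 3 WT and 3 Irf1-/-. They were found by the beginning of their symbols, Nduf for complex I, Sdha to Sdhd for complex II, Uqcr for complex III, Cox4 to Cox8 for complex IV, Atp5 for complex V, and mt-Nd, mt-Co, mt-Atp and mt-Cytb for the mitochondrial genome, with pseudogene symbols left out. Among 41388 listed genes, 110 had such a symbol, and 94 of them, 87 nuclear and 7 mitochondrial, reached a mean normalized count of 10 over the 6 libraries. That mean, taken over both genotypes together, is the measured value that chose the members. Just inside the limit stood Cox7a1 with a mean of 12.9, and just outside it Cox6a2 with 6.79 and Cox4i2 with 6.28. Cox7a1 was the single member that passed through 1 genotype alone, with a mean of 9.01 in WT and 16.7 in Irf1-/- cells.

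The WT mice and the mice lacking the transcription factor IRF1 were on the C57BL/6 background and 8 to 12 weeks old. CD4+ T cells from spleen and lymph nodes were purified by negative selection and primed with antibodies to CD3 and CD28. They were kept for 2 days with IL-2, IL-4 and TGF-β, the Th9 condition, and all 6 cultures also received 5 ng per ml of IFN-γ. The general culture methods give it as rat IFN-γ, added beside an antibody to mouse IFN-γ. The methods give the starting cells as naive CD4+ T cells, which are sorted further as CD44- CD62L+, whereas the labels name T cells and the negative selection. Libraries were made from poly(A) RNA. The values are normalized counts, that is, a gene's reads over a scaling factor for library size, and the reads on genes numbered between 5639788 and 13348230 a library.

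In the inner mitochondrial membrane, complexes I to IV pass electrons from NADH and succinate to oxygen and pump protons, and complex V, the ATP synthase, uses the returning protons to make ATP. Most subunits are encoded in the nucleus and imported, whereas a small set of core subunits of complexes I, III, IV and V is made from the mitochondrial genome. Activated T cells enlarge their mitochondria and raise respiration together with glycolysis. The comparison asked how the level of these transcripts differed between Th9 cells with and without IRF1 when IFN-γ was present.

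The first check concerned the libraries. Irf1 itself had 2968, 2907 and 2660 normalized counts in WT and 1780, 1729 and 1476 in Irf1-/- libraries. Counts per gene do not show which exons these reads cover, so they do not check the deletion itself. The 8 T cell markers summed to between 15845 and 18146 in all 6 libraries, and all 8 had a mean of at least 10. WT replicates 1 and 2 held transcripts of the Y chromosome and the other 4 libraries held Xist, so that a difference of sex lies partly between the groups. The 6 myeloid markers, 3 of which had a mean of at least 10, summed to between 51.2 and 148 in WT libraries, and the Irf1-/- libraries had 191, 681 and 39.0. The 2 CD8 T cell, 5 B cell, 4 NK cell and 5 erythroid markers summed to at most 41.2, 37.4, 5.97 and 7.99. The part of other cells in the results was not tested. In bulk RNA, more cells rich in a transcript and more of the transcript in each cell cannot be told apart.

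Nuclear genes of the complexes were on balance slightly higher in Irf1-/- than in WT Th9 cells. Of the 87 nuclear members 71 had a log2 fold change above 0, which 49.4% of all tested genes had, and their median was 0.14, against -0.0037 over all 11379 genes tested. At an adjusted p below 0.05 in limma, 21 members were called higher and 2 lower. Among all genes tested, 23.7% were called, 11.4% higher and 12.4% lower. In 37 members all Irf1-/- values lay above all WT values, against a background of 19.7%, and in 4 they lay below, against 20.9%. Most changes were small, since the lower and upper quartiles of the members were 0.05 and 0.22 on the log2 scale.

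The same shift was seen library by library. Set against the WT mean of each gene, the nuclear members had a median log2 difference of -0.0059, 0.02 and -0.0058 in the WT libraries. In the Irf1-/- libraries, in replicate order, it was 0.14, 0.22 and 0.06. The groups did not overlap, but the Irf1-/- libraries spread far more than the WT libraries, and replicate 2 held the highest value of 56 of the 87 members. Reads on all nuclear genes with these symbols made up 1.17%, 1.18% and 1.14% of the reads on genes in WT, and 1.27%, 1.33% and 1.21% in Irf1-/- libraries.

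**Figure D1:**
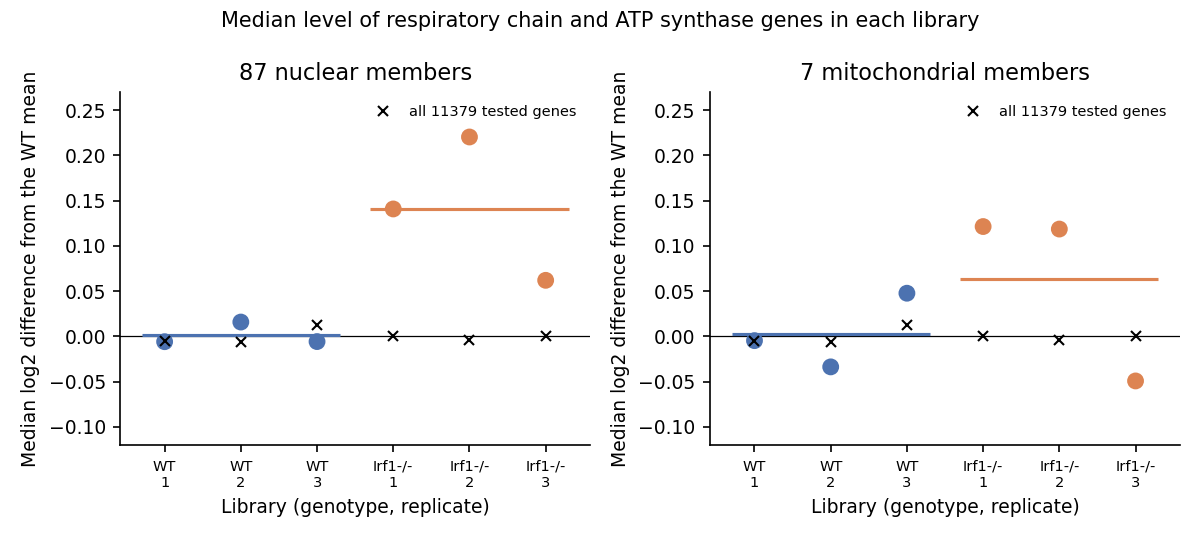
Median log2 difference from the WT mean, per library, for the 87 nuclear (left) and 7 mitochondrial members (right). Dots are libraries (blue WT, orange Irf1-/-), lines are group means and crosses are the median of all 11379 tested genes. The 3 Irf1-/- dots of the nuclear members sit at 0.06 to 0.22, above the WT dots, while the mitochondrial dots of the genotypes overlap.

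The number of calls rested on few libraries. Irf1-/- replicate 2 also held the most myeloid transcripts, and without it 7 nuclear members were called higher and the median was 0.09. Without WT replicate 1 or WT replicate 2 there were 9 calls each, and without Irf1-/- replicate 1 there were 12. With WT replicates 1 and 2 both left out, an alternative chosen after seeing the data that leaves 1 WT library assumed to vary like the others, 3 were called and the median was 0.16. Once a covariate for Y-linked transcripts was added, 16 nuclear members were called higher, 12 of them among the 21, and the median was 0.17. The 9 calls that ended with the covariate had adjusted p values of 0.0617 to 0.25. DESeq2 called 14 of the 21 and edgeR 18, and limma without a trend called 8, of which 7 were among the 21. In the 4 smaller libraries, replicates 1 and 2 of each genotype, there were 37 calls and a median of 0.16, whereas the pair of larger libraries had a median of 0.07. Both WT libraries of the smaller 4 held Y-linked transcripts and both Irf1-/- libraries held Xist, so that genotype and sex cannot be told apart there, while both larger libraries held Xist. The median stayed above 0 in each of these settings.

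Short transcripts in general leaned the same way. The nuclear members had a median exon length of 1718 bases, against 4431 over the tested genes. The other tested genes with up to 2000 bases of exon had a median log2 fold change of 0.07, and those above 2000 bases of -0.01. The 54 nuclear members with up to 2000 bases had a median of 0.18 and the 33 longer ones of 0.07. The part of transcript length in the shift was not tested.

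Complex I, which takes electrons from NADH, held more of the called genes than any other complex, and is also the largest. Of its 36 nuclear subunit genes 31 had a value above 0, with a median of 0.18. In limma 11 were called higher (30.6%, against 11.4% of all tested genes), in edgeR 11 and in DESeq2 8. None was called lower in limma, edgeR or DESeq2, and 0 were lower at an unadjusted p below 0.05. The 7 core subunits, the part conserved in bacteria that carries the flavin and iron-sulfur clusters, had a median of 0.13, and Ndufs7 and Ndufv1 were called higher. The 29 accessory subunits had a median of 0.18 with 9 calls. The 8 complex I assembly factors, which help to build the enzyme but do not stay in it, had a median of -0.05 and no call at an adjusted p below 0.05 in limma, edgeR or DESeq2. At an unadjusted p below 0.05 in limma 1 was lower and 0 were higher. The lower one was Ndufaf6, named here after its value was seen, with 156, 135 and 120 normalized counts in WT and 112, 87.4 and 104 in Irf1-/- libraries (log2 fold change -0.43, limma adjusted p = 0.050003).

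Ndufv3, an accessory subunit of the arm that binds NADH, changed most among the complex I genes. It had 363, 390 and 398 normalized counts in the WT libraries, against 535, 623 and 695 in the Irf1-/- libraries. The groups did not overlap, and the mean rose from 384 ± 18.3 to 617 ± 80.0 (SD, n = 3 each), a log2 fold change of 0.68 with a standard error of 0.09 (limma adjusted p = 0.000749). It was the single nuclear member called higher under all 20 alternatives with a test, with an adjusted p of at most 0.0296. Ndufv3 (ENSMUSG00000024038) is encoded on the + strand of chromosome 17 (GRCm38, 31520115 to 31531331), and no 50-base window of its transcripts occurs in another annotated gene.

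Ndufa6, an accessory subunit of the LYR protein family, had 301, 323 and 312 normalized counts in WT and 420, 426 and 396 in Irf1-/- libraries. Its log2 fold change was 0.41 with a standard error of 0.07 (limma adjusted p = 0.00336). Ndufb9, a LYR-family subunit of the membrane arm, had 497, 542 and 516 in WT and 641, 698 and 643 in Irf1-/- libraries, a log2 fold change of 0.35 (limma adjusted p = 0.00480). In both genes every Irf1-/- value exceeded every WT value. Both kept their call in 19 of 20 alternatives, and lost it without WT replicates 1 and 2. For Ndufb9, 23.4% of the 50-base windows are shared with the overlapping Gm49356, so its reads are less certain.

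**Figure D2:**
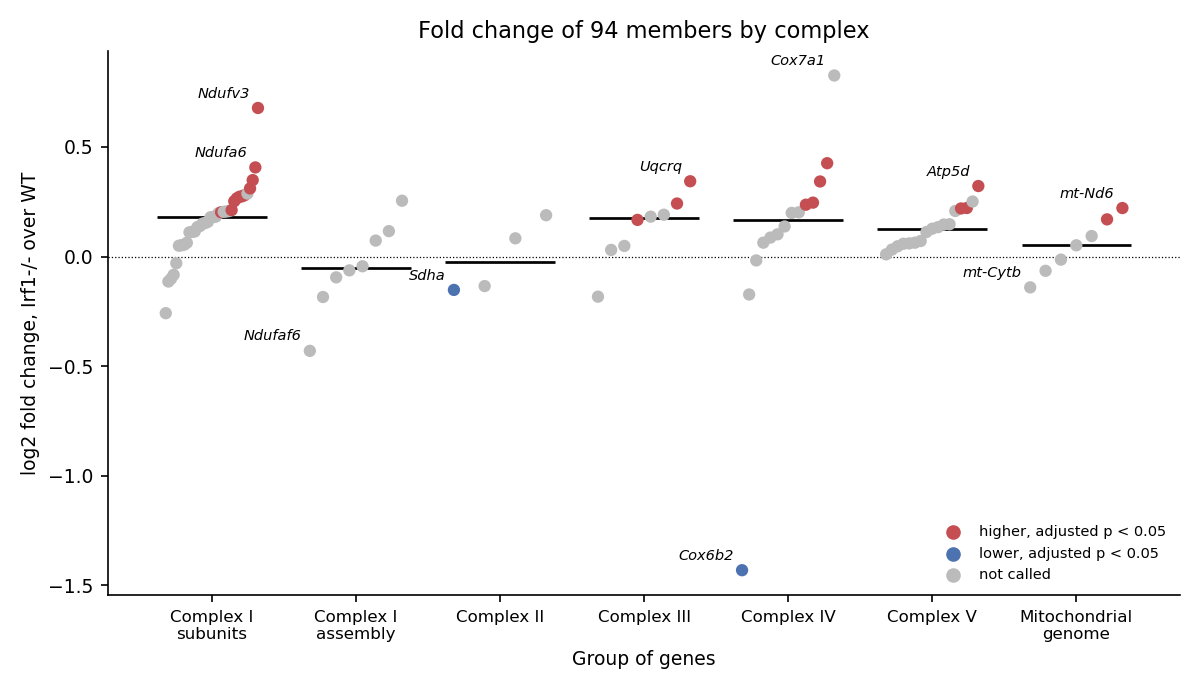
Log2 fold change, Irf1-/- over WT, of the 94 members grouped by complex (x axis), with the 7 mitochondrial members last. Dots are genes sorted by value, red or blue where limma's adjusted p was below 0.05, and black lines are medians. The medians of complexes I, III, IV and V lie between 0.13 and 0.18, those of the complex I assembly factors and of complex II lie at -0.05 and -0.03.

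X-linked members were looked at because of the difference of sex. Ndufb11, a membrane-arm subunit of complex I, had 576 ± 48.0 normalized counts in WT and 695 ± 30.9 in Irf1-/- cells (SD, n = 3 each), a log2 fold change of 0.27 (limma adjusted p = 0.0257). With a covariate for the Y-linked level its value was 0.20 and the adjusted p 0.17. Its call was also lost without WT replicate 1, WT replicate 2 or Irf1-/- replicate 2, with adjusted p values of up to 0.35 over the alternatives. The other X-linked members, Ndufa1 and Cox7b, had log2 fold changes of 0.21 and 0.09 and did not pass the test (limma adjusted p = 0.25 and 0.48). Ndufa13, the complex I subunit also known as GRIM-19, had 544 ± 20.4 and 629 ± 46.2 normalized counts in WT and Irf1-/- cells (SD, n = 3 each, limma adjusted p = 0.0617).

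Complex II, succinate dehydrogenase, which belongs to both the chain and the tricarboxylic acid cycle, had a median of -0.03 over its 4 genes. Sdha, the flavoprotein that oxidizes succinate, had 3607, 3568 and 3702 normalized counts in WT and 3156, 3231 and 3405 in Irf1-/- libraries. All 3 Irf1-/- values lay below the WT values, but the log2 fold change of -0.15 (standard error 0.05) passed the limit by the narrowest margin (limma adjusted p = 0.049983). It was called in 7 of 20 alternatives, with adjusted p values between 0.00245 and 0.22. Leaving out any library but Irf1-/- replicate 3 ended the call, as did the Y-linked covariate and DESeq2.

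Complex III, which hands electrons from ubiquinol to cytochrome c, had a median of 0.17 over its 8 genes. In limma 3 were called higher (37.5%, against 11.4% of all tested genes). In edgeR 2 and in DESeq2 1 were called higher. None was called lower in limma, edgeR or DESeq2, and 1 was lower at an unadjusted p below 0.05. Uqcrq, a small ubiquinone-binding subunit, had 965, 1009 and 1108 normalized counts in WT and 1284, 1440 and 1193 in Irf1-/- libraries. The groups did not overlap, with a log2 fold change of 0.34 (limma adjusted p = 0.0107), and the value ran from 0.11 to 0.46 over the alternatives. Its call was lost without WT replicate 1, with the Y-linked covariate and without a trend, at adjusted p values of up to 0.24. Uqcrq lies on chromosome 11 (53427922 to 53430831), the chromosome that also holds Irf1. The part of linkage to the deleted gene in its value was not tested. Uqcrc2, a core subunit with the highest mean of the complex, had 2122 ± 86.8 and 2167 ± 103 normalized counts (SD, n = 3 each, limma adjusted p = 0.74).

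Complex IV, cytochrome c oxidase, is the complex with most of the tissue isoforms among these symbols. Of 14 genes 4 were called higher (28.6%) and 1 lower (7.14%), against 11.4% and 12.4% of all tested genes, with a median of 0.17. Cox4i1, the general form of its largest nuclear subunit, had 2464, 2442 and 2445 normalized counts in WT and 2926, 3059 and 2687 in Irf1-/- libraries. That is a log2 fold change of 0.24 (limma adjusted p = 0.0131), which was no longer called without WT replicate 2, Irf1-/- replicate 1 or Irf1-/- replicate 2, at adjusted p values of up to 0.15. Cox6a1, the general form of another subunit, had 1541 ± 61.5 and 1831 ± 147 (SD, n = 3 each, log2 fold change 0.25, limma adjusted p = 0.0218). It lost its call without WT replicate 1, WT replicate 2 or Irf1-/- replicate 2, at adjusted p values of up to 0.25, and also with the Y-linked covariate (0.0633) and without a trend. Cox7a2l, named for its likeness to Cox7a2, had 464, 500 and 468 in WT and 554, 652 and 615 in Irf1-/- libraries, without overlap (log2 fold change 0.34, limma adjusted p = 0.00953). Cox5b was called higher although the groups overlapped, and is named for that after its values were seen. It had 348, 317 and 254 normalized counts in WT and 445, 452 and 339 in Irf1-/- libraries (log2 fold change 0.43, limma adjusted p = 0.0444).

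Cox6b2, the testis form of subunit 6b, was the member that fell most. It had 31.2, 34.9 and 28.3 normalized counts in WT and 14.3, 11.1 and 8.31 in Irf1-/- libraries, with no overlap. The log2 fold change was -1.43 with a standard error of 0.28 (limma adjusted p = 0.00472), called in 18 of 19 alternatives with a test and lost without WT replicates 1 and 2. Its general counterpart Cox6b1 stood at 1084 ± 20.7 in WT and 1249 ± 127 in Irf1-/- cells (SD, n = 3 each, log2 fold change 0.20, limma adjusted p = 0.0769). Per kb of exon, Cox6b2 had a mean level of 19.3 and Cox6b1 of 1648 normalized counts, so the form that fell made up little of the total.

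The heart and skeletal muscle forms were scarce. Cox7a1, which reached the mean of 10 through the Irf1-/- libraries alone, had 9.98, 7.21 and 9.84 normalized counts in WT and 16.7, 19.4 and 14.1 in Irf1-/- libraries, which did not overlap but did not pass the test (log2 fold change 0.83, limma adjusted p = 0.0823). The general form Cox7a2 had 753 ± 61.8 and 744 ± 57.2 (SD, n = 3 each, limma adjusted p = 0.90). Cox6a2, under the mean of 10 and so not among the genes tested, had 1.25, 1.20 and 1.84 normalized counts in WT, or 1, 1 and 3 reads. In Irf1-/- replicates 1, 2 and 3 it had 10.7, 9.71 and 16.0, or 9, 7 and 25 reads. The ratio of reads, 41 against 5 after scaling, was 8.56 with an exact 95% interval of 3.38 to 27.7 that covers counting error only, and without a filter on low values limma gave it an adjusted p of 0.00330. Cox6a2 overlaps Itgad over 70 bases, and Itgad was at 1.28 normalized counts or less in every library.

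**Figure D3:**
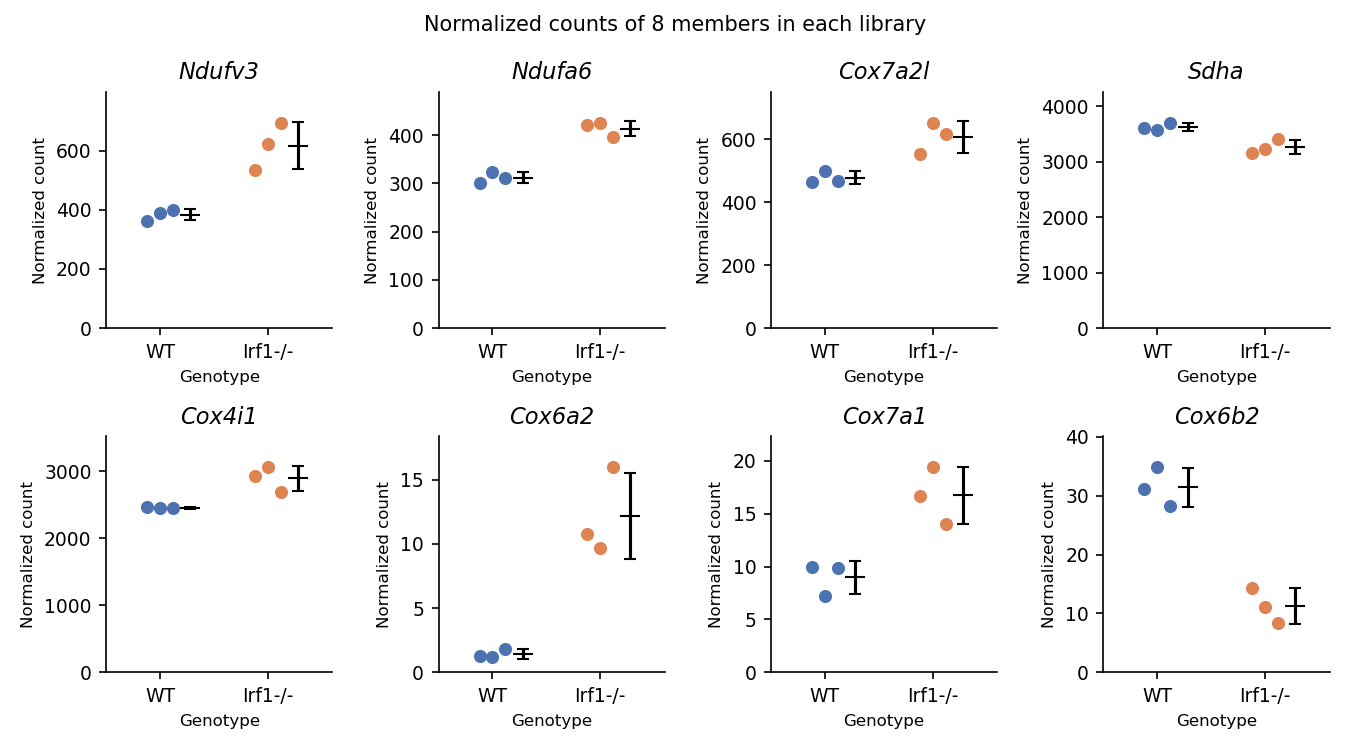
Normalized counts (y axis, from 0) of 8 members in WT (blue) and Irf1-/- libraries (orange), 1 dot a library, with the mean and SD of 3 libraries in black. Ndufv3, Ndufa6, Cox7a2l and Cox4i1 lie higher and Sdha lies lower in Irf1-/- cells without overlap, and among the scarce isoforms Cox6a2 and Cox7a1 lie higher and Cox6b2 lower.

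The other isoforms were scarce or not called. Cox4i2, the hypoxia-responsive form of subunit 4, had 13 reads in WT and 23 in Irf1-/- libraries in all. Cox8b and Cox8c, muscle and testis forms of subunit 8, had 2 reads and 0 reads over all 6 libraries, and Ndufa4l2 had 7. A count of 3 reads, the limit set for a gene at 0, corresponded to between 1.84 and 4.16 normalized counts, depending on the library. Cox8a, the general form of subunit 8, and Ndufa4, now counted as a complex IV subunit, had log2 fold changes of 0.20 and 0.14 (limma adjusted p = 0.0591 and 0.26). Cox7b2 was at 0 in all 6 libraries, and Cox6c2, Ndufa11b, Ndufb4c and Ndufs6b had at most 3 reads each.

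Complex V was the most even group, with all 17 genes above 0 and a median of 0.13. In limma 3 were called higher (17.6%, against 11.4% of all tested genes), in edgeR 2 and in DESeq2 1. None was called lower in limma, edgeR or DESeq2, and 0 were lower at an unadjusted p below 0.05. Atp5d, the delta subunit of the rotating central stalk, had 1830, 1861 and 1639 normalized counts in WT and 2214, 2448 and 2011 in Irf1-/- libraries. The log2 fold change was 0.32 (limma adjusted p = 0.0131), and the call was lost without Irf1-/- replicate 2 and without a trend, at adjusted p values of up to 0.0747. Atp5b, the catalytic beta subunit with the highest mean of all nuclear members, had 19625 ± 249 and 20507 ± 405 (SD, n = 3 each), a log2 fold change of 0.06 that did not pass the test (limma adjusted p = 0.37) and was -0.02 after quantile normalization. Per kb of exon, the levels of the 17 genes ran from 7.23 normalized counts for Atp5l to 4736 for Atp5b. Among these 17, Atp5s was placed in complex V by its older symbol alone and is named Dmac2l in RefSeq. In Atp5l 84.8% of the 50-base windows also occur in other genes, foremost Gm10221, so its low level and those of other genes with close copies are uncertain. The inhibitor of the ATP synthase, Atpif1, which lies outside the symbols searched, had 472 ± 13.9 and 556 ± 35.3 (SD, n = 3 each, log2 fold change 0.23, limma adjusted p = 0.0364). It lost its call without WT replicate 1, WT replicate 2, Irf1-/- replicate 2 or Irf1-/- replicate 3, at adjusted p values of up to 0.35, and also with the Y-linked covariate, with no filter, without a trend and in DESeq2.

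Values for the mitochondrial genome lay on both sides of 0. Of its 13 mRNAs 7 were measured, with 4 log2 fold changes above 0 and a median of 0.05. The median fell below 0 after quantile normalization and in the pair of larger libraries. In limma 2 were called higher (28.6%, against 11.4% of all tested genes), but none without a trend or with the Y-linked covariate. None was called lower in limma, edgeR or DESeq2, and 1 was lower at an unadjusted p below 0.05. Against the WT mean their median stood at -0.0048, -0.03 and 0.05 in the WT libraries, and at 0.12, 0.12 and -0.05 in the Irf1-/- libraries, so the groups overlapped. Mitochondrial mRNAs took 1.64%, 1.63% and 1.64% of the reads on genes in WT and 1.76%, 1.81% and 1.61% in Irf1-/- libraries. No test of the difference between nuclear and mitochondrial genes was made.

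mt-Co1, the catalytic subunit of complex IV, had 39401, 38665 and 41849 normalized counts in WT and 45037, 46569 and 43263 in Irf1-/- libraries. The log2 fold change of 0.17 just passed the test (limma adjusted p = 0.0495) and the call remained in 10 of 20 alternatives. It was lost without WT replicate 1, WT replicate 2, Irf1-/- replicate 1 or Irf1-/- replicate 2 and with the Y-linked covariate, and quantile normalization, under which it is the top-ranked gene of every library, gave it a value of 0. mt-Nd6, a complex I subunit encoded on the opposite strand to the others, had 2938, 3314 and 3229 in WT and 3953, 3585 and 3516 in Irf1-/- libraries (log2 fold change 0.22, limma adjusted p = 0.0303). It was called in 14 of 20 alternatives, and lost with the Y-linked covariate and without WT replicate 1, Irf1-/- replicate 1 or Irf1-/- replicate 2, at adjusted p values of up to 0.24. Its annotated bases overlap those of mt-Nd5 over 14 bases. Strand use is not given in the sources used here. Without strand, reads from the opposite strand anywhere over mt-Nd6 cannot be told apart from its own.

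mt-Cytb, the cytochrome b of complex III, was the mitochondrial mRNA with the lowest value. It had 31393, 32134 and 30825 normalized counts in WT and 29180, 30295 and 26263 in Irf1-/- libraries. The groups did not overlap, but the log2 fold change of -0.14 did not pass the test (limma adjusted p = 0.12). The complex I subunits mt-Nd1, mt-Nd2, mt-Nd4 and mt-Nd5 had log2 fold changes of 0.09, -0.01, -0.06 and 0.05, with overlapping groups and adjusted p values of 0.32 or more in limma.

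**Figure D4:**
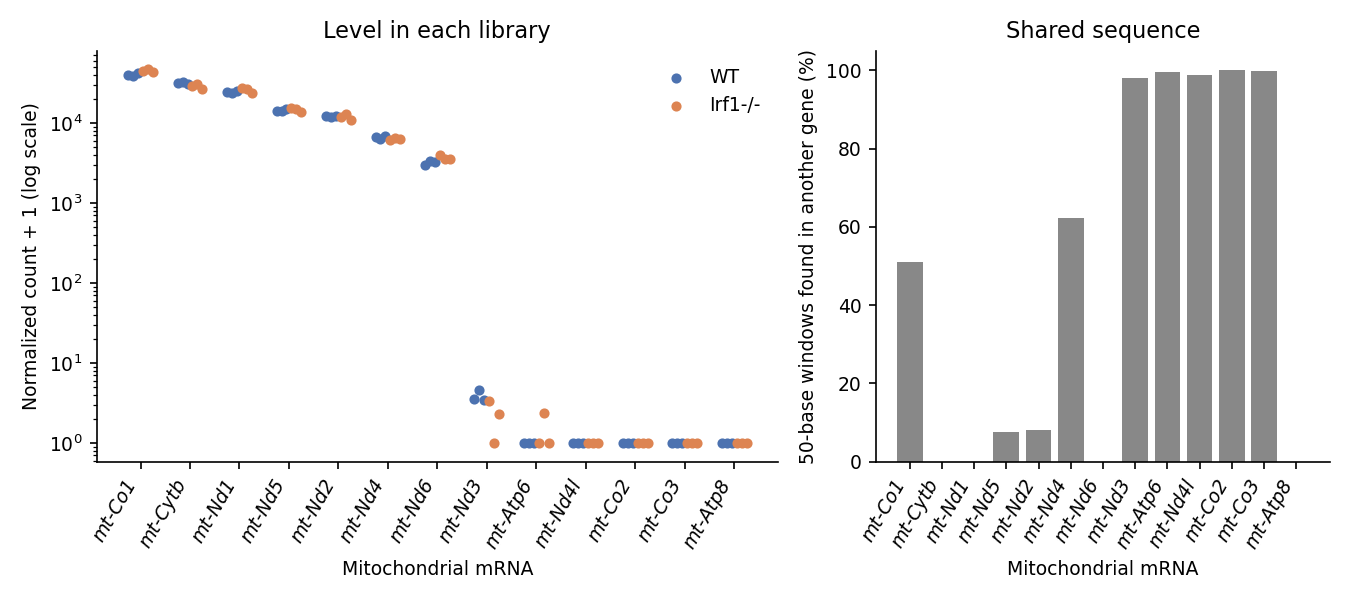
Left, normalized count plus 1 (log axis) of the 13 mitochondrial mRNAs in each library (blue WT, orange Irf1-/-). Right, the percentage of each mRNA's 50-base windows that also occur in another annotated gene. The 7 measured mRNAs share 0 to 62.2% of their windows, and 5 of the 6 at or near 0 share at least 98.0%.

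The other 6 mitochondrial mRNAs were listed at or near 0, although respiring cells make all of them. mt-Co2, mt-Co3, mt-Nd4l and mt-Atp8 were listed at 0 in all 6 libraries, mt-Atp6 had 1 read in all and mt-Nd3 had 13. For mt-Co2, mt-Co3, mt-Atp6, mt-Nd3 and mt-Nd4l, between 98.0% and 99.9% of the 50-base windows also occur in a pseudogene on chromosome 1. These pseudogenes are copies of mitochondrial DNA in the nuclear genome. Of these copies Gm10925, Gm28661 and Gm28437 had at most 1.39, 1.39 and 0.639 normalized counts, and Gm10222 was at 0. Gm28438 had 31.2, 20.4 and 25.8 in WT and 64.5, 58.2 and 2.56 in Irf1-/- libraries, so that its Irf1-/- values lay on both sides of the WT values. How reads with several equal positions were treated is not given in the sources used here, and its part in these zeros was not tested. mt-Atp8 shared no window with an annotated transcript and was at 0 all the same. It lies between mt-Co2 and mt-Atp6 in the mitochondrial genome. The bases between their copies, from Gm10925 (to 24614651) to Gm28661 (from 24614885), are outside these annotated copies. The search did not cover them, so it cannot tell whether mt-Atp8 has a copy there.

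Stretches of 60 bases are shown for a pair that is identical and for one that is not. The first 60 bases of mt-Co3 and of its copy Gm28437 (chr1:24613189-24613971) are identical, as are all 783 aligned bases. The stretch of mt-Co1 from base 1054 to 1113 and the same stretch of Gm29216 hold all 6 mismatches of the 492 aligned bases, given in capitals. All are transcript sequences of GENCODE M21 on GRCm38, written 5′ to 3′.
mt-Co3: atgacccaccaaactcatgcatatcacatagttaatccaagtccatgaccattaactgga
Gm28437: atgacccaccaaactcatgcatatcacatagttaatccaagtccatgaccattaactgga
mt-Co1: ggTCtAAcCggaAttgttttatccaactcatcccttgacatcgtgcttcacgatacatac
Gm29216: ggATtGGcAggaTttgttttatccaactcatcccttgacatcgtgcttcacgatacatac

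Promoter sequences were available for 74 of the 87 nuclear members in RefSeq's table of GRCm38.p6, each with 250 bases before and 50 after the first-listed start. They were searched on both strands for the letters AANNGAAA, a core of the element bound by interferon regulatory factors, CCGGAAGT of the ETS family, GCGCATGC of NRF1 and AAGATGGC of YY1. The interferon element letters stood in 17 of 74 members (23.0%), against 24.2% of all 27025 promoters and 17.5% of the 8901 of tested genes. Among the 18 members called higher 5 held them, and among the 2 called lower none. The NRF1 letters stood in 12 of 74 members (16.2%) against 2.80% of all and 6.00% of tested promoters, and in 5 of the 18 called higher and 7 of the 54 not called. The YY1 letters stood in 10 members (13.5%) against 2.88% of all and 5.25% of tested promoters, and 1 of these 10 was called higher. The ETS letters stood in 5 members (6.76%), against 4% of all and 9.43% of tested promoters. A match is a run of letters and not a measured binding site.

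The promoters of the called nuclear members with the highest and the lowest log2 fold change and of 2 further members called higher are shown 5′ to 3′, with matches in capitals. Ndufv3 (chr17:31519865-31520164, + strand) and Cox6b2 (chr7:4753045-4753344, - strand) held none of the 4 motifs. Ndufa6 (chr15:82354242-82354541, - strand) held the NRF1 letters, and Cox7a2l (chr17:83514284-83514583, - strand) held the interferon element letters.
Ndufv3: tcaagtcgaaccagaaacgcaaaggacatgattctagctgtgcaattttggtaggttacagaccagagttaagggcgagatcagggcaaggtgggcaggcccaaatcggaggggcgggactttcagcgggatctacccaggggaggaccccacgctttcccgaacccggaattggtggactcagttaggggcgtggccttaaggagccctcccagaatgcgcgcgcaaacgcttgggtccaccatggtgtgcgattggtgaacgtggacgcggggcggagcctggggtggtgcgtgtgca
Cox6b2: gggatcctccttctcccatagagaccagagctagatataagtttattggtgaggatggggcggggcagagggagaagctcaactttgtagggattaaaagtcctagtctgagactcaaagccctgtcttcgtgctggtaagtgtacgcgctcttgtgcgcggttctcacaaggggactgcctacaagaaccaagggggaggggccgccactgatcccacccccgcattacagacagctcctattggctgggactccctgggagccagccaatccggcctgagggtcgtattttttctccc
Ndufa6: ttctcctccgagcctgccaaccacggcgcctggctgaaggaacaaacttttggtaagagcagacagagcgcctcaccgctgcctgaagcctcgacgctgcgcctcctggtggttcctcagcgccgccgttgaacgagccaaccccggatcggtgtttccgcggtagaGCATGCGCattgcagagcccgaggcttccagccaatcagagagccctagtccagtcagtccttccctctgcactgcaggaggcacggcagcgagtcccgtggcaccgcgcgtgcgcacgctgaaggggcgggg
Cox7a2l: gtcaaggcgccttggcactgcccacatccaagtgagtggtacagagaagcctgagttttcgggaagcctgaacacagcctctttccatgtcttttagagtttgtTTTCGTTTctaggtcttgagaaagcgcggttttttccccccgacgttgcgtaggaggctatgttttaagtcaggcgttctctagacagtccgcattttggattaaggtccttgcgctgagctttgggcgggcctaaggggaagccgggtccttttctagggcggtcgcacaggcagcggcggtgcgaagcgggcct

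Factors that regulate these genes lay on both sides of 0. Of 18 tested regulators of mitochondrial biogenesis 8 had a value above 0 and 10 below, with a median of -0.11. In limma at an adjusted p below 0.05, 4 were called lower (22.2%, against 12.4% of all tested genes) and none higher. Counted at an unadjusted p below 0.05, 8 were lower and 2 higher. edgeR and DESeq2 called none higher. Stat3, a cytokine-activated factor with a mitochondrial pool, had 4152 ± 290 and 3193 ± 127 normalized counts (SD, n = 3 each, log2 fold change -0.38, limma adjusted p = 0.00167). Yy1, a zinc finger factor of respiratory gene promoters, had 1075 ± 122 and 827 ± 52.8 (SD, n = 3 each, log2 fold change -0.37, limma adjusted p = 0.0109), a call lost without WT replicate 1 or WT replicate 2 at adjusted p values of up to 0.33. Nrf1, the nuclear respiratory factor, and Gabpb1, a partner of the ETS factor GABPA, completed the 4 and are named after their values were seen. Their log2 fold changes were -0.24 and -0.24 (limma adjusted p = 0.0178 and 0.0318). The number called lower was 1 without WT replicate 1 and 2 without WT replicate 2.

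Of 27 tested genes that maintain and express the mitochondrial genome 21 had a value below 0, with a median of -0.11. The 3 called lower (11.1%) were no larger a share than the 12.4% of all tested genes, and DESeq2 called 1. None was called higher in limma, edgeR or DESeq2, and 2 were higher at an unadjusted p below 0.05. Fastkd2, an RNA-binding protein of the mitochondrial matrix, had 452 ± 42.0 and 342 ± 17.8 normalized counts (SD, n = 3 each, log2 fold change -0.40, limma adjusted p = 0.00787). Pnpt1, the mitochondrial polynucleotide phosphorylase, had a log2 fold change of -0.22 (limma adjusted p = 0.0270). Tfam, which packages mitochondrial DNA and is named after its value was seen, had -0.19 (limma adjusted p = 0.0470). The number called lower was 1 without WT replicate 1, WT replicate 2, WT replicate 3 or Irf1-/- replicate 2.

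Of 42 assembly factors outside the symbols searched 4 were called higher and 4 lower (9.52% each, against 11.4% and 12.4% of all tested genes), with a median of -0.02. Lyrm7, the chaperone of the iron-sulfur subunit of complex III, had 42.2 ± 5.70 normalized counts in WT and 12.8 ± 0.326 in Irf1-/- cells (SD, n = 3 each), a log2 fold change of -1.64 (limma adjusted p = 0.000734). Its client Uqcrfs1 had a log2 fold change of -0.18 and did not pass the test (limma adjusted p = 0.11). Cox15, a heme A synthesis enzyme, had -0.35 (limma adjusted p = 0.0479), and was called in 10 of 20 alternatives. Higd1a, a hypoxia-inducible partner of complex IV, and Cox18, which inserts the mt-Co2 product into the membrane, had 0.48 and 0.54 (limma adjusted p = 0.00262 and 0.00891). Both counts were 2 without WT replicate 1, WT replicate 2 or Irf1-/- replicate 1, and the number lower was also 2 without Irf1-/- replicate 2.

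Electron carriers and other genes of the complexes and the inner and outer membrane outside the symbols searched had a median of 0.03 over 15 genes. Of these, 3 were called higher (20%) and 1 lower (6.67%), against 11.4% and 12.4% of all tested genes, and DESeq2 called 2 higher. Gpd2, the mitochondrial glycerol-3-phosphate dehydrogenase, had 607 ± 17.3 and 501 ± 14.7 normalized counts (SD, n = 3 each, log2 fold change -0.28, limma adjusted p = 0.0111). Ucp2, an uncoupling protein family carrier, had 4982 ± 560 and 6384 ± 648 (SD, n = 3 each, log2 fold change 0.36, limma adjusted p = 0.0138), and Sqor, the sulfide quinone oxidoreductase, had 14.3 ± 3.26 and 28.5 ± 5.36 (SD, n = 3 each, log2 fold change 0.95, limma adjusted p = 0.0295). The number called higher was 1 without WT replicate 1, WT replicate 2 or Irf1-/- replicate 2.

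The tricarboxylic acid cycle and the mitochondrial ribosome stayed near 0 on balance. Of 20 cycle genes 2 were called higher and 1 lower, with a median of 0.01 (10% and 5%, against 11.4% and 12.4% of all tested genes). Suclg1, a succinyl-CoA ligase subunit, had 1003 ± 34.0 and 1280 ± 57.3 normalized counts (SD, n = 3 each, log2 fold change 0.35, limma adjusted p = 0.00206). Ogdh, a subunit of the oxoglutarate dehydrogenase, had a log2 fold change of -0.18 (limma adjusted p = 0.0320). Of 76 mitochondrial ribosomal protein genes 4 were called higher and 5 lower (5.26% and 6.58%), smaller shares than over all tested genes, with a median of 0.0050. DESeq2 called 2 higher and 0 lower. Mrpl4 and Mrpl24 had log2 fold changes of 0.31 and 0.26 (limma adjusted p = 0.00722 and 0.0123), and Mrpl1 and Mrpl42 of -0.29 and -0.26 (limma adjusted p = 0.0228 and 0.0389). Each of these counts fell to 2 or less without WT replicate 1 or WT replicate 2.

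Calls of single genes in these lists often rested on 1 library. Stat3 was called under all alternatives with a test, and Lyrm7, Higd1a, Cox18, Fastkd2, Suclg1 and Mrpl4 under all but the one without WT replicates 1 and 2. Ucp2 and Mrpl24 lost their call without WT replicate 1 or WT replicate 2, with adjusted p values over the alternatives of up to 0.35 and 0.23. Gpd2 lost it without WT replicate 2 (up to 0.14), Nrf1 without WT replicate 1 (up to 0.15), and Gabpb1 without WT replicate 1 or 2 or Irf1-/- replicate 1 or 3 (up to 0.33). Sqor lost it without WT replicate 1 or 3 or Irf1-/- replicate 2 or 3 (up to 0.11), and Mrpl1 without WT replicate 1 or 3 or Irf1-/- replicate 1 or 2 (up to 0.11). Cox15 lost it without any 1 of the WT libraries, or Irf1-/- replicate 2 (up to 0.17). Pnpt1 and Ogdh lost it without any 1 of the WT libraries, or Irf1-/- replicate 1 or 2 (up to 0.0970 and 0.18), Mrpl42 without any 1 of the WT libraries, or Irf1-/- replicate 1 or 3 (up to 0.14), and Tfam without any 1 of the 6 libraries (up to 0.17). Among the complex IV genes, Cox5b lost its call without WT replicate 2 or 3 or Irf1-/- replicate 1 or 2 (up to 0.16). With the Y-linked covariate Yy1, Nrf1, Gabpb1, Tfam, Ucp2, Mrpl24 and Mrpl42 kept their direction and lost their call, at adjusted p values of 0.0525 to 0.17, so that 3 of the 4 regulators called lower were no longer called. DESeq2 did not call Cox15, Sqor, Gabpb1, Tfam, Pnpt1, Ogdh, Mrpl1 or Mrpl42, and edgeR did not call Cox15 or Cox5b. The fit without a trend did not call Yy1, Nrf1, Gabpb1, Tfam, Ucp2, Cox15, Pnpt1, Ogdh, Mrpl1, Mrpl42 or Cox5b.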

How the data were processed

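RNA from 3 WT and 3 Irf1-/- Th9 cultures was compared. The deposited signal is a normalized count, for which the authors had aligned the reads to GRCm38 with STAR 2.4.0b, used featureCounts on Ensembl genes and divided by DESeq2 1.12.3 size factors. Strand use and the treatment of reads with several positions are not given in the sources used here. Since all values of a library were multiples of the value of 1 read, the reads themselves could be recovered (100% whole, tolerance 0.001). The reads on genes numbered 5639788 to 13348230 a library, and fold changes are on a log2 scale after adding 1.

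Genotypes were compared by limma 3.58.1 (eBayes with a trend, R 4.3.3) on log2(normalized count + 1). The 11379 genes with a mean of at least 10 were tested in all 6 libraries, with Benjamini-Hochberg adjustment over them and a threshold of 0.05. An exact permutation test of 3 against 3 libraries cannot give a p below 0.1, and was not used. The study calls the 3 samples of a genotype independent biological samples. Whether each came from a separate mouse is not given in the sources used here, and p-values measure the spread between these libraries. The members, the gene lists and the alternatives were chosen with earlier results of these data known. Lists were described by counts and medians and not tested.

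Named are all mitochondrial mRNAs, the 6 lowest and 6 highest called nuclear members without overlap (2 were called lower), the highest mean of each complex, X-linked and isoform genes, Ndufa13, Atpif1, Irf1 and up to 2 called genes per list and direction, with 6 genes added after their values were seen. Of the genes so chosen, 2 are not reported here. Alternatives were other pseudocounts (0.1 and 10), filters (none, mean of 50) and scalings, no trend, count models on the recovered reads (edgeR 4.0.16, DESeq2 1.42.0), a replicate block, the Y-linked level as a covariate, each library left out, and libraries split by size. Symbols, exon lengths, overlaps and 50-base windows came from GENCODE M21 on GRCm38, and 40254 of 41388 genes had a symbol. Motif searches used the first-listed start of each gene in RefSeq's promoter table. On simulated data for this comparison, with 200 of 11379 genes changed, limma called 80% of changes of 1 and 14% of changes of 0.3 on the log2 scale, with 8 calls among unchanged genes.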

Additional observations from a re-analysis of the deposited data

How the results depend on the processing

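The 21 nuclear members called higher became 8 without a trend (7 of them among the 21), 14 in DESeq2, 16 with the Y-linked covariate (12 of them among the 21), 37 in the 4 smaller libraries, 3 without WT replicates 1 and 2 (chosen after seeing the data), and 7 to 30 with a library left out. The 2 called lower became 1 with no filter, library totals, no trend, DESeq2 or the Y-linked covariate, 6 in the 4 smaller libraries, 0 without WT replicates 1 and 2, and 1 to 5 with a library left out. The larger pair of libraries gave a median of 0.0741, against 0.09 to 0.19 with a library left out. It stayed above 0 in all 21 settings. Mitochondrial members called higher were 1 with a pseudocount of 10, no filter or quantile normalization, 0 without a trend, with the Y-linked covariate or without WT replicates 1 and 2, 4 in the 4 smaller libraries and 0 to 2 with a library left out, and 1 was called lower in the 4 smaller libraries. Their median was -0.0170 after quantile normalization, 0.13 in the 4 smaller libraries, -0.10 in the larger pair and 0.02 to 0.10 with a library left out. Over all genes 807 were lower without a trend, and 392 lower and 392 higher without WT replicates 1 and 2. With a library left out, 826 to 1472 were lower and 799 to 1372 higher. The cause of these changes was not tested.

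The labels and methods do not say whether the replicate numbers pair samples, and no pairing was assumed in the main test. Deviations of same-numbered libraries correlated at 0.0922, 0.269 and 0.321 over 11379 genes, and each library correlated best with its own number. With a replicate block 31 nuclear members were called higher and 5 lower, 2 mitochondrial members higher and 1 lower, and 2116 genes lower and 1893 higher in all. Under the block, the lists had 7 assembly factors lower, 1 maintenance gene higher and 7 lower, 7 mitochondrial ribosomal proteins higher and 8 lower, and 2 regulators higher and 8 lower.

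Counts in the lists moved as follows, with the settings in brackets. Assembly factors called higher were 2 (DESeq2), 8 (4 smaller libraries), 0 (without WT replicates 1 and 2) and 2 to 4 (a library left out), and called lower 2 (library totals, quantile), 1 (no trend, without WT replicates 1 and 2), 7 (4 smaller) and 2 to 5 (a library left out). Electron carriers and other genes outside the symbols called higher were 1 (no trend), 0 (without WT replicates 1 and 2) and 1 to 3 (a library left out), and called lower 2 (4 smaller), 0 (without WT replicates 1 and 2) and 0 to 1 (a library left out). Maintenance genes called higher were 1 (library totals, quantile, Y-linked covariate), 2 (4 smaller) and 0 to 1 (a library left out), and called lower 1 (quantile, no trend, DESeq2), 0 (without WT replicates 1 and 2) and 1 to 3 (a library left out). Ribosomal proteins called higher were 2 (no filter, no trend, edgeR, DESeq2), 9 (4 smaller), 0 (without WT replicates 1 and 2) and 1 to 5 (a library left out), and called lower 3 (no filter, quantile), 1 (library totals, Y-linked covariate), 0 (no trend, DESeq2, without WT replicates 1 and 2) and 0 to 4 (a library left out). Regulators called higher were 1 (4 smaller) and 0 to 1 (a library left out), and called lower 2 (quantile), 1 (no trend, without WT replicates 1 and 2), 8 (4 smaller) and 1 to 5 (a library left out). Cycle genes called higher were 5 (quantile), 1 (no trend, Y-linked covariate), 6 (4 smaller), 0 (without WT replicates 1 and 2) and 1 to 3 (a library left out), and called lower 0 (no filter, quantile, no trend, DESeq2, without WT replicates 1 and 2), 2 (4 smaller) and 0 to 2 (a library left out).

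Of 1151 values of 55 named genes under the alternatives, 894 kept direction and side of the threshold, 184 lost and 32 gained a call, and 16 changed sign. A further 25 values, from the pair of larger libraries and without a test, moved by more than the spread between replicates, and 3 of them changed sign, turning mt-Nd1 to -0.0870, mt-Nd5 to -0.0969 and Ndufa4 to -0.0827. The log2 fold change of Cox7a2 turned to 0.0114 with library totals, 0.0330 with quantile normalization, 0.12 with the Y-linked covariate and 0.12 without WT replicates 1 and 2, and ran from -0.0876 to 0.0455 with a library left out. Uqcrc2 turned to -0.0213 with the Y-linked covariate and -0.0344 without WT replicates 1 and 2, and ran from -0.00141 to 0.0669 with a library left out. Quantile normalization turned Atp5b to -0.0242, mt-Nd1 to -0.0128 and mt-Nd5 to -0.0170. mt-Nd2 turned to 0.0150 with library totals and 0.0628 in the 4 smaller libraries, and ran from -0.0802 to 0.0491 with a library left out. None of these 7 genes was called in all 6 libraries together, but mt-Nd1, mt-Nd5, Ndufa4 and Atp5b were called higher in the 4 smaller libraries, and Ndufa4 without Irf1-/- replicate 3. At this depth, changes of 0.3 on the log2 scale were mostly missed on simulated data, with 14% found.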
